A study of Mus musculus with 24 samples.

Results

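Glutathione transferase genes of mouse liver are described here: the alpha class genes Gsta2, Gsta3 and Gsta4 and the pi class genes Gstp1 and Gstp3. They were chosen by class and by name, and every probe set annotated to them was used. All 5 of the 5 genes were measured, among 12393 genes on the array, by 6 probe sets annotated to 1 of them alone. A further probe set was annotated jointly to Gm3776, Gsta2 and Gsta1, cannot be given to 1 gene, and is called the shared Gsta1/Gsta2 probe set. All 5 genes passed the limit on dim probe sets and were tested.

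Each of 12 groups held 2 mice, 24 in all, labelled as females of a C57BL/6x129Sv mixture, and the liver RNA of every mouse was put on an Affymetrix array of its own. CAR.AH mice expressed human CAR from a transgene under the albumin promoter of the mouse, which is active in hepatocytes; they lacked mouse CAR after 2 breeding cycles to knockout mice. CAR.KO mice lacked mouse CAR, and wild-type mice carried mouse CAR alone. CAR is the constitutive androstane receptor, a nuclear receptor encoded in the mouse by Nr1i3 that switches on drug-metabolising genes. Each genotype received TCPOBOP (3 mg/kg, injected once, with corn oil on the later days), phenobarbital (100 mg/kg/day), CITCO (30 mg/kg/day) or corn oil, the vehicle. Injections were intraperitoneal over 3 days at 24 h intervals, and livers were taken 6 h after the last. According to the labels TCPOBOP is a ligand of mouse CAR, CITCO one of human CAR, and phenobarbital moves both receptors into the nucleus. The labels used here name no litters or array batches, so p-values measure the spread between these mice only. The number of 2 mice a group limits the precision of every value.

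Expression values are log2 values after RMA, the normalisation the authors applied, so a difference of 1 is a 2-fold difference in signal. A log2 change is a difference of group means, given with the standard error (SE) or 95% interval of a limma fit to all 24 arrays. Adjusted p-values are Benjamini-Hochberg values of that fit over 9167 genes within a comparison, and a gene was called at an adjusted p under 0.05. The dim limit is the 40th percentile of an array, which lay between 4.93 and 5.08. Levels are compared within a probe set only, and in whole liver fewer cells of a type and less RNA per cell cannot be told apart.

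The Nr1i3 reading was 5.03 to 5.60 on the 16 arrays of CAR.AH and CAR.KO, against 6.84 to 8.0 in wild-type mice. The 12 measured hepatocyte markers were all above the dim limit on every array. Among cholangiocyte markers 3 to 5 of 10 were above it on an array, with a mean of 4.87 to 5.43 over the list, with Krt7 and Epcam above it on 0 arrays and Krt19 on 23, at 4.97 to 5.80. The sex label was not borne out by Xist, which lay at 4.72 to 5.51, close to the dim limit, while the Y-linked Eif2s3y lay at 4.33 to 5.30 and Kdm5d and Uty were never above the limit. Of the male-biased liver genes 13 to 16 of 16 were above the limit on an array, and of the female-biased ones 5 to 9 of 15. The phenobarbital arrays of CAR.AH replicate 1 and CAR.KO replicate 2 stood apart, with median correlations to the other arrays of 0.970 and 0.980, against 0.981 to 0.991 for the rest. Without these 2 arrays no call of the 5 genes changed. CAR.AH phenobarbital replicate 1 also had the highest mean of neutrophil and erythroid markers of all arrays (6.54) and the lowest of endothelial markers (5.97). The part of these lists in its readings was not tested.

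Glutathione transferases join the tripeptide glutathione to reactive electrophiles, which makes them water-soluble and ready for export from the hepatocyte. Alpha class enzymes are abundant in liver and also reduce lipid hydroperoxides. GSTA4 prefers hydroxyalkenals such as 4-hydroxynonenal, an end product of lipid peroxidation, and mouse GSTA3 is known for conjugating the epoxide of aflatoxin. Pi class enzymes of mouse liver are known to be higher in males than in females. In rodents many glutathione transferase genes are drug-inducible, through CAR and through the oxidative stress factor NRF2.

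Promoters of alpha and pi class genes are shown as a description of these genes, and Gsta4 had no promoter entry. They lie before the gene start, outside the transcript that a probe set reads. Their likeness therefore does not show what a probe set can tell apart, and probe sequences were not compared. In the RefSeq gene order Gsta4, Gsta1 and Gm3776 are neighbours on chromosome 9, Gsta2 lies on the same chromosome between Omt2b and Dppa5a, and Gsta3 lies on chromosome 1. Gstp1, Gstp2 and Gstp3 are neighbours on chromosome 19. The 250 bases before the gene start, from the RefSeq table of build GRCm38.p6 and written 5′ to 3′ on the gene's strand, are given for a pair of alpha class genes. Capitals mark runs of at least 10 identical bases in their alignment.
Gsta1, chr9:78230419-78230668, plus strand: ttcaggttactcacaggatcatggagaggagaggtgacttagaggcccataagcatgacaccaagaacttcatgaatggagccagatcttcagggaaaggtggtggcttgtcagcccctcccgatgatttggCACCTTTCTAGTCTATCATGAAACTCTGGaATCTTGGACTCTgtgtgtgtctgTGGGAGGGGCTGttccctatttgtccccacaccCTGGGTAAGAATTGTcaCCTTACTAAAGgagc
Gsta2, chr9:78347146-78347395, minus strand: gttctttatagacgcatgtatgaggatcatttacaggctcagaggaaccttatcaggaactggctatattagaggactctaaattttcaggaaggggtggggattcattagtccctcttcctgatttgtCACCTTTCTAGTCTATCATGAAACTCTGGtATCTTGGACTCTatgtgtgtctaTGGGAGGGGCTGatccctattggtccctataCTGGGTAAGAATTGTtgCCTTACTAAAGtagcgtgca
These promoters were 77.0% identical over 239 aligned bases, with 5 such runs, the longest of 29 bases, holding 79 bases in all. Other pairs between Gsta1, Gsta2, Gsta3 and the pi class genes gave 49.4% to 59.4%, apart from the pi class pair Gstp1 and Gstp2.

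Gstp1 and Gstp2 were 88.1% identical over 235 aligned promoter bases, and Gstp1 and Gstp3 were 54.8% identical over 228. The Gstp1 and Gstp3 promoters follow, with the only match to a searched motif in capitals.
Gstp1, chr19:4037913-4038162, minus strand: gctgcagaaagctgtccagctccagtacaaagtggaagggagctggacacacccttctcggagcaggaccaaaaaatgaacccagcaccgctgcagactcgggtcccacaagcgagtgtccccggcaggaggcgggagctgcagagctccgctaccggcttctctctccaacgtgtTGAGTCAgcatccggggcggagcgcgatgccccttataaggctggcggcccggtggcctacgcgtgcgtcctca
Gstp3, chr19:4059448-4059697, minus strand: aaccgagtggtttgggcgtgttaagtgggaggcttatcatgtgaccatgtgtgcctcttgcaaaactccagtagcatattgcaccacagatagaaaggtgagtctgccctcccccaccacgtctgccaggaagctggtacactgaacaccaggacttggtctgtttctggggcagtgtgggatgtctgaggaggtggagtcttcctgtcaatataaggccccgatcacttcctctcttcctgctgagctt
The capitals in Gstp1 mark TGANTCA, the core bound by AP-1 and by NRF2 with a MAF partner, which starts 74 bases before the gene start. Gstp2 holds the same match 89 bases before its start, and Gstp3 holds none in this window. On both strands, 6.9% of 27025 promoters of this length hold TGANTCA, 10.1% hold TGACNNNGC (the antioxidant response element core, overlapping in its first letters with TGANTCA), 13.8% hold AGGTCA and 11.9% hold AGTTCA (hexamers of nuclear receptor sites). Gsta3 holds TGACNNNGC once, 121 bases before its start, and no other of these motifs was matched in Gsta1, Gsta2, Gsta3, Gstp1, Gstp2 or Gstp3. A match is a description of letters only.

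Gsta4 and the shared Gsta1/Gsta2 probe set rose with TCPOBOP and with phenobarbital in wild-type livers. Gsta4 stood at 9.38 and 9.47 with TCPOBOP, 8.73 and 9.20 with phenobarbital, and 7.73 and 7.76 with CITCO, against 7.60 and 7.89 on corn oil. The TCPOBOP and phenobarbital mice lay above all 20 other arrays, with a gap of 0.52 between 8.73 and the next array, at 8.21. Gsta4 rose by 1.68 with TCPOBOP, a 3.20-fold change (SE 0.21, adjusted p = 7.21e-05), and by 1.22 with phenobarbital, a 2.33-fold change (SE 0.21, adjusted p = 0.00598). With CITCO its change was 0.00 (95% interval -0.44 to 0.44). Leaving out each array in turn kept the Gsta4 call with TCPOBOP in 4 of 4 cases and with phenobarbital in 2 of 4. It was lost without wild-type phenobarbital replicate 2 (change 0.99, adjusted p = 0.149) and without wild-type corn oil replicate 1 (1.08, adjusted p = 0.0815).

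The shared Gsta1/Gsta2 probe set rose by more than any of the 5 genes did in these comparisons. In wild-type livers it read 10.58 and 11.11 with TCPOBOP, 9.31 and 10.96 with phenobarbital, and 6.97 and 6.74 with CITCO, against 6.82 and 6.78 on corn oil. The TCPOBOP and phenobarbital mice lay above every other array, the highest of which was CAR.AH on CITCO at 8.22. In a fit to 14763 probe sets, with p-values adjusted over these, it rose by 4.04 with TCPOBOP, a 16.5-fold change (SE 0.52, adjusted p = 0.000138), and by 3.33 with phenobarbital, a 10.1-fold change (SE 0.52, adjusted p = 0.00323). With CITCO the change was 0.05 (95% interval -1.06 to 1.16). The phenobarbital mice differed by more than 1 unit, and without the higher, replicate 2, the change was 2.51 (adjusted p = 0.0941). Of all 14763 probe sets 6.05% were called with TCPOBOP and 1.38% with phenobarbital.

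Marker lists of 2 cell types stood apart on these wild-type arrays. The mean of the 12 hepatocyte markers was 12.06 and 12.03 with TCPOBOP and 12.13 and 12.10 with phenobarbital, the 4 lowest of 24, against 12.18 and 12.34 on corn oil; limma called 0 of the 12 with either ligand. The mean of the 10 cholangiocyte markers was 5.43 and 5.32 with TCPOBOP, the 2 highest of 24, and 5.00 and 5.04 with phenobarbital, against 5.01 and 4.92 on corn oil. Prom1, also on the female-biased list, was the 1 of 5 tested members of that list that rose with TCPOBOP, by 3.88 (SE 0.27, adjusted p = 1.14e-07), and Krt7 and Epcam were below the dim limit throughout. The part of these shifts in the Gsta4 and shared readings was not tested.

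**Figure D1:**
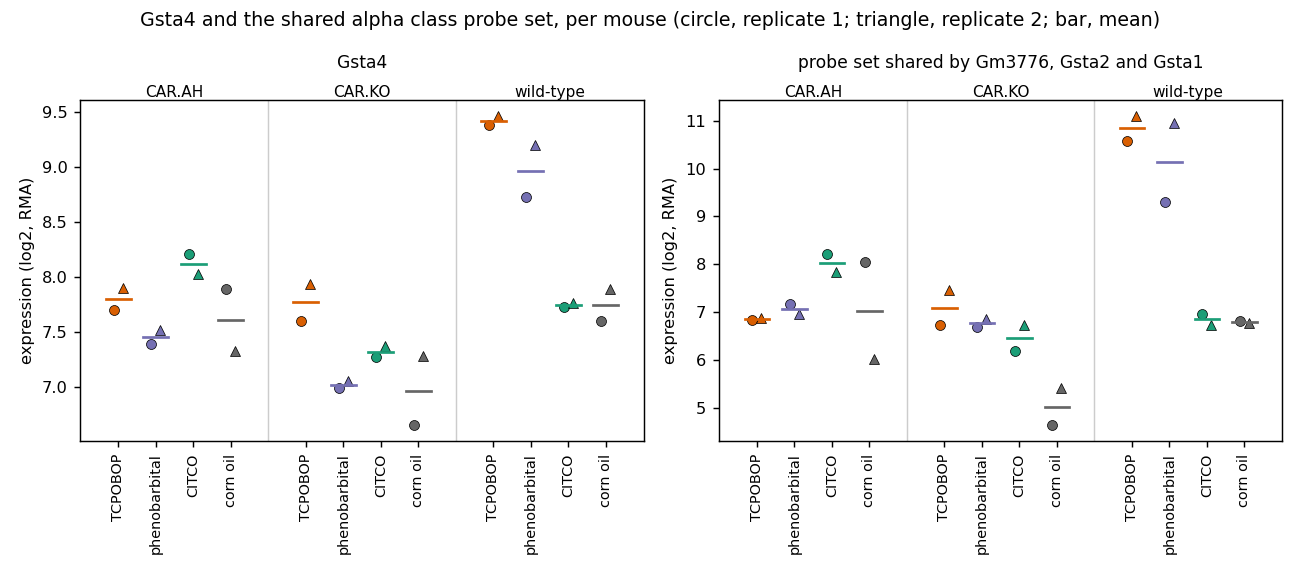
Log2 expression of Gsta4 and of the shared Gsta1/Gsta2 probe set in each of 24 mice, by genotype and treatment; circles are replicate 1, triangles replicate 2 and bars group means. The wild-type TCPOBOP and phenobarbital mice lie above all others, at 8.73 to 9.47 for Gsta4 and 9.31 to 11.11 for the shared probe set.

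In CAR.AH livers neither reading was called with any ligand. Gsta4 there stood at 7.70 and 7.90 with TCPOBOP, 7.39 and 7.52 with phenobarbital, and 8.21 and 8.03 with CITCO, against 7.89 and 7.33 on corn oil. Its CITCO change was 0.52 (95% interval 0.08 to 0.95, adjusted p = 0.572), and both CITCO mice lay above both corn oil mice. The shared probe set read 6.84 and 6.88 with TCPOBOP, 7.16 and 6.97 with phenobarbital, and 8.22 and 7.83 with CITCO, against 8.04 and 6.02 on corn oil. Its CITCO change of 0.99 (95% interval -0.12 to 2.10, adjusted p = 0.689) depended on that corn oil pair, running from -0.02 to 2.00 as each array was left out. In the same CAR.AH livers Cyp2b10, the cytochrome P450 most used as a readout of CAR, rose by 3.01 with CITCO (SE 0.38, adjusted p = 0.0029) and by 2.78 with phenobarbital (SE 0.38, adjusted p = 0.00807). Cyp2b10 also rose with CITCO in wild-type livers, by 3.23 (SE 0.38, adjusted p = 0.00226). On corn oil it was already high in CAR.AH, with a mean of 8.52 against 4.94 in wild-type and 5.11 in CAR.KO livers. The limma difference between CAR.AH and wild-type on corn oil was 3.58 (SE 0.38, adjusted p = 0.000272).

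In CAR.KO livers Gsta4 stood at 7.60 and 7.94 with TCPOBOP, 6.99 and 7.05 with phenobarbital, and 7.27 and 7.37 with CITCO, against 6.65 and 7.28 on corn oil. No change was called, and that with TCPOBOP was 0.80 (95% interval 0.37 to 1.24, adjusted p = 0.222). The shared probe set read 6.72 and 7.46 with TCPOBOP, 6.68 and 6.86 with phenobarbital, and 6.19 and 6.73 with CITCO, against 4.63 and 5.42 on corn oil. The CAR.KO corn oil mice held the lowest readings of all 24 arrays. The changes against them were 2.07 with TCPOBOP (95% interval 0.96 to 3.18, adjusted p = 0.202), 1.75 with phenobarbital (0.64 to 2.86, adjusted p = 0.109) and 1.44 with CITCO (0.33 to 2.55, adjusted p = 0.406).

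Gsta2, read by a probe set of its own, was called in 1 of the 9 ligand comparisons, that of phenobarbital in wild-type livers. In wild-type livers it stood at 6.91 and 7.08 with TCPOBOP, 7.85 and 8.99 with phenobarbital, and 6.61 and 6.48 with CITCO, against 6.53 and 6.09 on corn oil. Both phenobarbital mice lay above all 22 other arrays, while the TCPOBOP mice lay among them. Gsta2 rose by 2.10 with phenobarbital, a 4.30-fold change (SE 0.48, adjusted p = 0.0367). This call held in 1 of 4 cases when an array was left out. It was lost without phenobarbital replicate 2 (1.54, adjusted p = 0.374), without corn oil replicate 1 (2.32, adjusted p = 0.104) and without corn oil replicate 2 (1.89, adjusted p = 0.252). The change with TCPOBOP was 0.68 (95% interval -0.33 to 1.69, adjusted p = 0.452) and that with CITCO 0.23 (-0.78 to 1.24).

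On CAR.KO arrays Gsta2 read 6.58 and 7.72 with TCPOBOP, 6.22 and 6.77 with phenobarbital, and 5.93 and 6.56 with CITCO, against 4.32 and 5.30 on corn oil. As with the shared probe set, the corn oil mice were the lowest of all 24, and the lower of them was below the dim limit. The changes of 2.34 with TCPOBOP (95% interval 1.33 to 3.35, adjusted p = 0.0941), 1.68 with phenobarbital (0.67 to 2.69, adjusted p = 0.0886) and 1.43 with CITCO (0.42 to 2.45, adjusted p = 0.35) were not called. The 11 Kupffer cell markers moved with these arrays. Their mean lay between 6.60 and 7.55 on the 6 ligand arrays of CAR.KO, against 8.12 and 8.27 on its corn oil arrays, with 10 or 11 of 11 above the dim limit. With phenobarbital 4 of 11 fell (median change -1.27), beside 0.731% of all genes called. With TCPOBOP 1 of 11 did (median -0.99), beside 0.0764%. The part of these markers in the Gsta2 and shared readings was not tested.

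On CAR.AH arrays Gsta2 read 5.80 and 6.57 with TCPOBOP, 7.03 and 6.93 with phenobarbital, and 7.02 and 7.04 with CITCO, against 7.38 and 5.91 on corn oil. The corn oil mice spanned nearly the whole range of this genotype, and the changes of -0.46, 0.34 and 0.38 were not called. The corn oil replicate 1 mouse, the higher one, also gave the lower mean of 7.58 over the 16 male-biased liver genes, against 8.85 in replicate 2; the part of that difference was not tested.

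**Figure D2:**
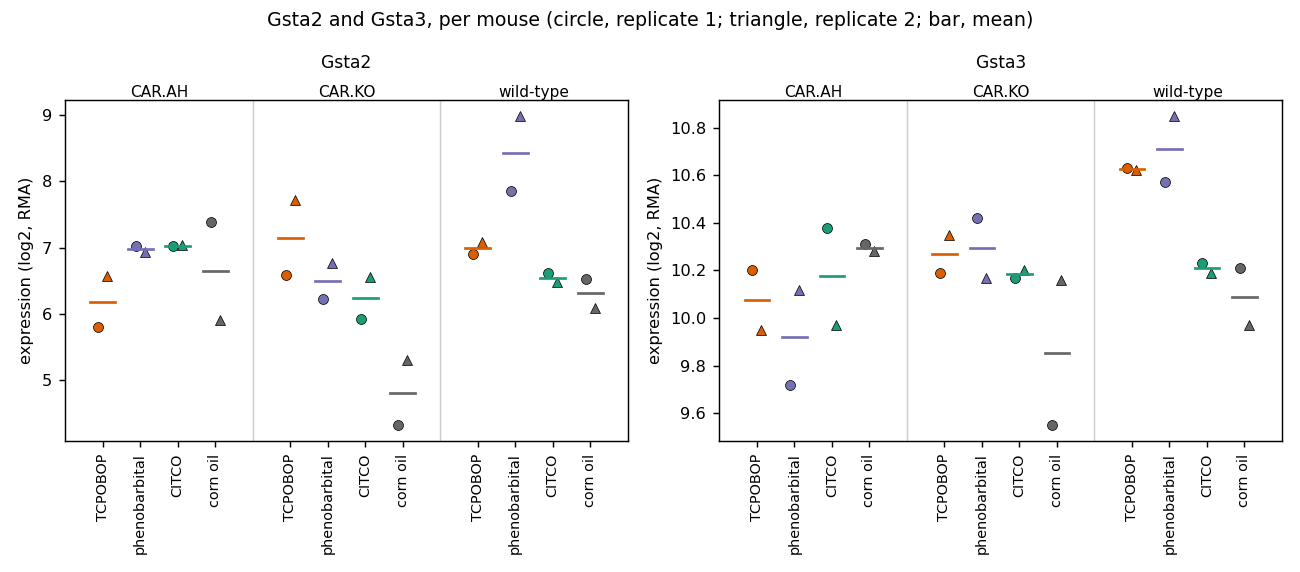
Log2 expression of Gsta2 and Gsta3 in each of 24 mice, by genotype and treatment; circles are replicate 1, triangles replicate 2 and bars group means. The lowest Gsta2 readings are the CAR.KO corn oil mice at 4.32 and 5.30, the highest the wild-type phenobarbital mice at 7.85 and 8.99, and Gsta3 spans 9.55 to 10.85.

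Gsta3 varied little and was called in 0 of the 22 comparisons by limma, while 9 of the 22 had an unadjusted p under 0.05. In wild-type livers it stood at 10.63 and 10.62 with TCPOBOP, 10.57 and 10.85 with phenobarbital, and 10.23 and 10.19 with CITCO, against 10.21 and 9.97 on corn oil. The TCPOBOP and phenobarbital mice were the 4 highest of 24, by changes of 0.53 (95% interval 0.13 to 0.94, adjusted p = 0.119) and 0.62 (0.22 to 1.02, adjusted p = 0.142). A second Gsta3 probe set, which followed the first with a Pearson r of 0.91 over the 24 arrays, gave 0.86 (0.24 to 1.47, adjusted p = 0.10) and 0.81 (0.19 to 1.42, adjusted p = 0.212). In CAR.KO and CAR.AH livers the changes of Gsta3 ran from -0.37 to 0.44 on the first probe set and from -0.34 to 0.70 on the second. The 0.70 was with TCPOBOP in CAR.KO livers (0.09 to 1.32, adjusted p = 0.392). A corn oil mouse of CAR.KO, replicate 1 at 9.55, held the lowest reading of the first probe set.

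Gstp3 was either high or low on a given array, with nothing between 7.07 and 10.14. On the 8 CAR.AH arrays it read between 6.13 and 7.07, and on the 8 CAR.KO arrays between 6.31 and 6.50. In wild-type livers it stood at 6.81 and 10.14 with TCPOBOP, 11.53 and 11.44 with phenobarbital, and 6.54 and 6.66 with CITCO, against 11.67 and 10.83 on corn oil. The 5 high arrays were thus all wild-type, and 3 of the 8 wild-type arrays were at the level of the other genotypes. The TCPOBOP mice fell on either side of the gap of 3.08, although both carried the high Gsta4 and shared probe set readings given above. The mean of the male-biased liver genes on these arrays was 8.46 and 8.0 with TCPOBOP, 8.42 and 7.93 with phenobarbital, and 9.16 and 8.61 with CITCO, against 9.19 and 8.74 on corn oil. The part of that list in the Gstp3 readings was not tested.

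The limma fit uses a common spread for all groups in every Gstp3 test. The group SD was 2.36 in the wild-type TCPOBOP pair, but 0.02 to 0.07 in the CAR.KO groups. The SE and adjusted p-values may thus understate the spread between wild-type mice. In this fit Gstp3 fell by 4.65 with CITCO in wild-type livers (SE 0.61, adjusted p = 0.00448) and by 2.77 with TCPOBOP (SE 0.61, adjusted p = 0.0112). With phenobarbital its change was 0.23 (95% interval -1.07 to 1.53). The CITCO call held in 1 of 4 cases when an array was left out, with a change of -5.07 to -4.23. It was lost without CITCO replicate 1 (adjusted p = 0.059), without CITCO replicate 2 (adjusted p = 0.0896) and without corn oil replicate 1 (adjusted p = 0.222). For TCPOBOP the change was -4.44 without replicate 2 and -1.11 without replicate 1, and the call was lost without corn oil replicate 1 (-2.36, adjusted p = 0.121). In CAR.AH and CAR.KO livers the ligand changes ran from -0.48 to 0.16. All these wild-type changes and the genotype differences on corn oil share the same 2 wild-type corn oil mice.

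**Figure D3:**
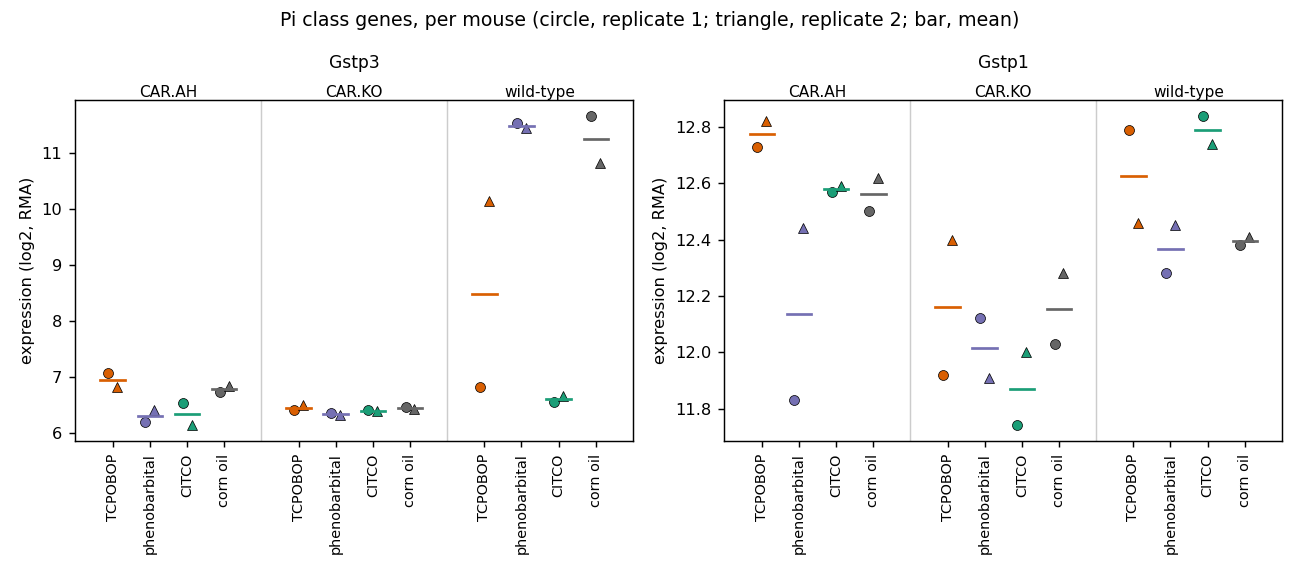
Log2 expression of Gstp3 and Gstp1 in each of 24 mice, by genotype and treatment, on separate axes; circles are replicate 1, triangles replicate 2 and bars group means. Gstp3 lies at 10.14 to 11.67 in 5 wild-type mice and at 6.13 to 7.07 in all 19 others, while Gstp1 spans 11.74 to 12.84.

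Gstp1, the neighbour of Gstp3, did not share its pattern and was called in 0 of the 22 comparisons by limma, with 4 of the 22 at an unadjusted p under 0.05. Whether its probe set also reads the near copy Gstp2 was not tested. Gstp1 lay between 11.83 and 12.82 on CAR.AH arrays (median 12.58), between 11.74 and 12.40 on CAR.KO arrays (median 12.01) and between 12.28 and 12.84 on wild-type arrays (median 12.45). In wild-type livers it stood at 12.79 and 12.46 with TCPOBOP, 12.28 and 12.45 with phenobarbital, and 12.84 and 12.74 with CITCO, against 12.38 and 12.41 on corn oil. The CITCO mice, low in Gstp3, thus lay above the corn oil mice in Gstp1, by 0.40 (95% interval 0.00 to 0.79, adjusted p = 0.678). Its smallest adjusted p was 0.205, for a change of -0.43 with phenobarbital in CAR.AH livers. Without CAR.AH phenobarbital replicate 2 this change was -0.73 (adjusted p = 0.0167) and rested on replicate 1, which is among the arrays that stood apart.

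The 9 ligand comparisons give these counts. In wild-type livers TCPOBOP gave 2 called members of 5 (Gsta4 up, Gstp3 down), beside 6.14% of all 9167 genes. Phenobarbital gave 2 (Gsta4 and Gsta2, both up), beside 1.47%. CITCO gave 1 (Gstp3, down), beside 0.0327%, which was 3 genes in all. In CAR.AH and CAR.KO livers no member was called with any ligand. The share of genes called there was 0.665% with phenobarbital and 0.0873% with CITCO in CAR.AH, and 0.0764% with TCPOBOP, 0.731% with phenobarbital and 0.0327% with CITCO in CAR.KO. With TCPOBOP in CAR.AH limma called 0% of genes and 0 members, with 6.65% of genes and 0 members at an unadjusted p under 0.05. At that unadjusted limit CAR.AH livers had 1 of 5 members with phenobarbital, beside 21.2% of genes, and 1 with CITCO, beside 7.49%. CAR.KO livers had 3 of 5 with TCPOBOP, beside 11.4%, 2 with phenobarbital, beside 21.3%, and 1 with CITCO, beside 9.40%. The median change of the 5 members in wild-type livers was 0.53 with TCPOBOP and 0.62 with phenobarbital, beside 0.01 and 0.00 over all genes.

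**Figure D4:**
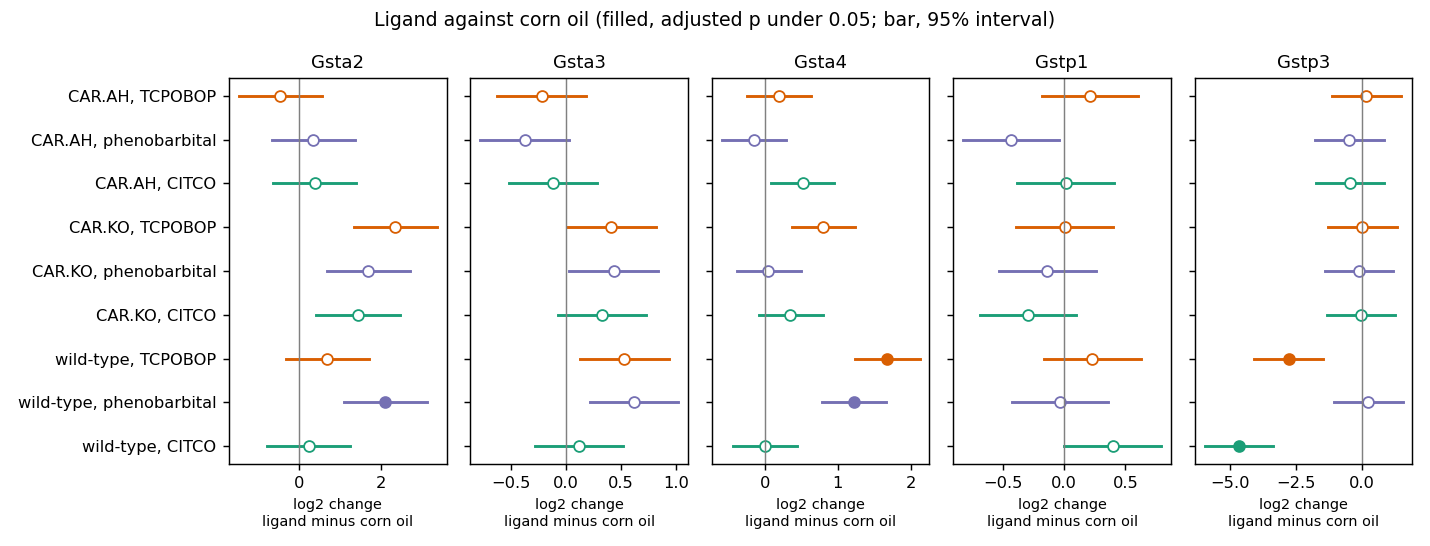
Log2 change of the 5 genes against corn oil, with 95% intervals, for 3 ligands in 3 genotypes, each gene on a horizontal axis of its own scale; filled symbols have an adjusted p under 0.05. The filled symbols are all wild-type: Gsta4 with TCPOBOP (1.68) and phenobarbital (1.22), Gsta2 with phenobarbital (2.10), and Gstp3 with TCPOBOP (-2.77) and CITCO (-4.65).

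Among the mice given corn oil alone, Gstp3 was high in wild-type livers and low in the other genotypes. It averaged 6.78 ± 0.08 in CAR.AH, 6.44 ± 0.02 in CAR.KO and 11.25 ± 0.59 in wild-type livers (SD, n = 2 each). Its difference was -4.81 between CAR.KO and wild-type livers (SE 0.61, adjusted p = 0.00145), a call kept in 4 of 4 cases when an array was left out. Between CAR.AH and wild-type livers it was -4.47 (SE 0.61, adjusted p = 0.00496), kept in 2 of 4, and lost without wild-type corn oil replicate 1 (adjusted p = 0.116) or CAR.AH corn oil replicate 1 (adjusted p = 0.0895). Every case with an array left out still held a high wild-type corn oil mouse. Wild-type mice given CITCO (6.54 and 6.66) and TCPOBOP replicate 1 (6.81) read low. The 2 corn oil mice thus cannot separate genotype from differences between wild-type mice. The mean of the male-biased genes on corn oil was 7.58 and 8.85 in CAR.AH and 7.66 and 8.02 in CAR.KO. In wild-type livers on corn oil it was 9.19 and 8.74, and its part in the Gstp3 differences was not tested. Gstp3 was 1 member of 5 called in each of these comparisons, beside 0.229% of genes between CAR.KO and wild-type and 0.0545% between CAR.AH and wild-type.

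By group mean the alpha class genes were lowest in CAR.KO livers on corn oil, without a call. For Gsta3 these mice read 9.55 and 10.16, against 10.21 and 9.97 in wild-type livers. That difference ran from -0.55 to 0.07 as each array was left out. The difference of CAR.KO from wild-type was -1.50 for Gsta2 (95% interval -2.51 to -0.49, adjusted p = 0.452), -0.78 for Gsta4 (-1.22 to -0.34, adjusted p = 0.277) and -0.24 for Gsta3 (-0.64 to 0.17), and for Gstp1 it was also -0.24 (-0.63 to 0.15). For the shared probe set it was -1.78 (-2.89 to -0.67, adjusted p = 0.384). Between CAR.AH and CAR.KO limma called 0 of the 5 members, beside 0.12% of genes. At an unadjusted p under 0.05 there were 4 of the 5, beside 6.46% of genes. The differences were 1.83 for Gsta2 (0.82 to 2.84, adjusted p = 0.274), 0.64 for Gsta4 (0.21 to 1.08, adjusted p = 0.468), 0.44 for Gsta3 (0.04 to 0.84) and 0.41 for Gstp1 (0.01 to 0.80). Between CAR.AH and wild-type the alpha class differences ran from -0.14 to 0.33. On corn oil the Kupffer cell marker mean was 8.27 and 8.12 in CAR.KO, 7.62 and 7.20 in CAR.AH, and 8.10 and 7.61 in wild-type livers. Of that list limma called only Marco, at 1.73 for CAR.KO minus wild-type (adjusted p = 0.00327) and -1.34 for CAR.AH minus CAR.KO (adjusted p = 0.0368). The part of these markers in the alpha class differences was not tested.

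A call in wild-type and none in another genotype does not show that the genotypes differ, so the difference of the ligand changes was tested. The TCPOBOP change was smaller in CAR.AH than in wild-type livers, with a difference of -1.49 for Gsta4 (SE 0.29, adjusted p = 0.0117) and of -4.21 for the shared probe set (SE 0.74, adjusted p = 0.00578). Gsta4 was the 1 member of 5 called there, beside 1.87% of genes and 2.02% of probe sets. The Gsta4 difference kept its call in 4 of 8 cases when an array was left out, from -1.76 to -1.21, with a largest adjusted p of 0.0689, and the shared one in 8 of 8. Those losing it were wild-type corn oil replicate 1, CAR.AH corn oil replicate 1, wild-type TCPOBOP replicate 2 and CAR.AH TCPOBOP replicate 1.

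Between CAR.KO and wild-type livers no difference of ligand changes was called for a member, with 3, 1 and 2 members at an unadjusted p under 0.05 for TCPOBOP, phenobarbital and CITCO, beside 11.9%, 9.14% and 5.64% of genes. For TCPOBOP the difference was -0.88 in Gsta4 (95% interval -1.50 to -0.26, adjusted p = 0.176) and -1.97 in the shared probe set (-3.54 to -0.40, adjusted p = 0.246), beside 1.95% of genes and 1.96% of probe sets called. In Gsta2 it had the opposite sign, 1.65 (0.22 to 3.08, adjusted p = 0.304). For phenobarbital it was -1.17 in Gsta4 (-1.78 to -0.55, adjusted p = 0.177) and -1.59 in the shared probe set (adjusted p = 0.543), beside 0.153% of genes and 0.176% of probe sets. For CITCO the Gstp3 difference was 4.60 (2.77 to 6.44, adjusted p = 0.202), where 0.0218% of genes were called.

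The phenobarbital change in CAR.AH minus that in wild-type livers was -1.37 in Gsta4 (adjusted p = 0.0764), -0.99 in Gsta3 (adjusted p = 0.174), -1.77 in Gsta2 (adjusted p = 0.372) and -3.30 in the shared probe set (adjusted p = 0.0975). No member was called, beside 0.164% of genes and 0.251% of probe sets. At an unadjusted p under 0.05 there were 3 of the 5, beside 10.4% of genes. Without CAR.AH phenobarbital replicate 2 the differences in Gsta4, Gsta3 and the shared probe set passed, at adjusted p-values of 0.0151, 0.0184 and 0.0311, with replicate 1, an array that stood apart, left in that group. Without CAR.AH corn oil replicate 2 those in Gsta4 (-1.65, adjusted p = 0.0334) and the shared probe set (-4.31, adjusted p = 0.0132) passed, and without wild-type phenobarbital replicate 1 that in the shared probe set did (-4.12, adjusted p = 0.0395). The Gstp3 difference for CITCO was 4.2 (95% interval 2.36 to 6.03, adjusted p = 0.238), in a comparison where limma called 0% of genes and 9.41% had an unadjusted p under 0.05. Between CAR.AH and CAR.KO no member was called for TCPOBOP, phenobarbital or CITCO, where 0%, 0.0109% and 0.0327% of genes were called. At an unadjusted p under 0.05 there were 2, 1 and 0 members, beside 5.03%, 7.90% and 6.79% of genes. The TCPOBOP difference was -2.79 in Gsta2 (95% interval -4.22 to -1.36, adjusted p = 0.403), -0.64 in Gsta3, -0.61 in Gsta4, 0.20 in Gstp1 and 0.15 in Gstp3. The Gsta2 means were 6.19 in CAR.AH and 7.15 in CAR.KO with TCPOBOP, against 6.64 and 4.81 on corn oil. For phenobarbital the Gsta3 difference was -0.81 (-1.38 to -0.24, adjusted p = 0.38).

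TCPOBOP and phenobarbital were given at different doses and schedules, so their wild-type values are those at the doses given. Gstp3 was lower with TCPOBOP than with phenobarbital, with a difference of -3.00 (SE 0.61, adjusted p = 0.0188), kept in 2 of 4 cases when an array was left out, and it was -1.34 without the low TCPOBOP mouse. The call was lost without phenobarbital replicate 1 (adjusted p = 0.201) or 2 (adjusted p = 0.119). Gsta2 differed by -1.42 (95% interval -2.43 to -0.41, adjusted p = 0.219), Gsta4 by 0.46 (0.02 to 0.90, adjusted p = 0.422) and the shared probe set by 0.71 (-0.40 to 1.82, adjusted p = 0.731). The differences of Gsta3 (-0.09) and Gstp1 (0.26) had intervals that held 0. Gstp3 was the 1 member of 5 called, beside 1.28% of genes.

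Among the other glutathione transferases 17 were measured and 16 tested. The 16 had median changes of 0.13 with TCPOBOP and 0.48 with phenobarbital in wild-type livers, beside 0.01 and 0.00 over all genes. There 5 rose with TCPOBOP, beside 6.14% of all genes called, 6 rose with phenobarbital, beside 1.47%, and 0 fell. They were the mu class genes Gstm1 (1.69 with TCPOBOP, 1.74 with phenobarbital), Gstm2 (2.75 and 1.87) and Gstm3 (4.10 and 3.30), the theta class genes Gstt1 (1.24 and 0.79) and Gstt3 (2.79 and 2.46), and with phenobarbital also Gstm4 (1.43). With CITCO in wild-type, and with every ligand in CAR.AH and CAR.KO, limma called 0 of the 16. The TCPOBOP change was smaller in CAR.AH than in wild-type livers for 4 of the 16 and in CAR.KO for 5, beside 1.87% and 1.95% of all genes called.

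Of the genes of glutathione synthesis, recycling and breakdown 27 were measured and 24 tested, and with TCPOBOP in wild-type 3 of the 24 were called (12.5%, beside 6.14% of all genes). Anpep, which cleaves the dipeptide left by glutathione breakdown, rose by 0.90, while Oplah, which opens oxoproline, fell by 1.01 and Cbs, which makes the cysteine precursor cystathionine, fell by 0.75. With phenobarbital and with CITCO limma called 0 of the 24, and the median changes were -0.10, 0.04 and -0.08 for TCPOBOP, phenobarbital and CITCO. Of the NRF2 targets and regulators 25 were measured and 24 tested. In wild-type livers 5 rose with TCPOBOP (Abcc3 by 1.73, Cbr1 by 1.44, Srxn1 by 1.30, Ephx1 by 1.07 and Ugdh by 0.89) and 4 with phenobarbital (Abcc3 by 1.66, Cbr1 by 1.17, Ephx1 by 1.08 and Aox1 by 0.91). The median changes of the list were 0.29 and 0.31, 0 fell, and with CITCO 0 were called. Of all genes 6.14% were called with TCPOBOP, 1.47% with phenobarbital and 0.0327% with CITCO. Abcc3, an efflux pump for glutathione and glucuronide conjugates, was also on the list of CAR markers used as checks. It rose too in CAR.AH livers with phenobarbital (0.72) and CITCO (0.99) and in CAR.KO livers with phenobarbital (1.05).

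Across the 24 arrays, which share groups and normalisation, the alpha class readings followed each other. Pearson r was 0.95 between Gsta4 and the shared probe set, 0.78 between Gsta2 and the shared probe set, 0.72 between Gsta3 and Gsta4, and 0.67 between Gsta2 and Gsta4. Between Gstp1 and Gstp3 it was 0.10. The genes whose patterns were most like that of Gsta4 were Gstm3 (r 0.91), 4931406C07Rik (0.90) and Gstt3 (0.90). For Gsta2 they were Abcc3 (0.74), Ephx1 (0.71) and Gstm1 (0.70), and for Gsta3 they were Katna1 (0.79) and Entpd5 (0.78) after Zadh2 (0.84). For Gstp1 they were Coq7 (0.80), C6 (0.79) and Glyctk (0.76). For Gstp3 they were Mrpl57 (0.80), Mrpl20 (0.78) and Psmd8 (0.72), over 5 high and 19 low arrays. Of the 20 nearest tested neighbours on the chromosome, those with an r above 0.6 in size numbered 4 for Gsta4 (beside 4.82% of 9166 genes), 1 for Gsta2 (beside 0.764%), 0 for Gsta3 (beside 2.17%), 1 for Gstp3 (Ndufs8, beside 0.742%) and 0 for Gstp1 (beside 0.786%). Gsta2 and Gsta4 are each other's neighbour in this count, and among the others Arpp19 had an r of 0.87 with Gsta4. The median size of r was 0.35 for the neighbours of Gsta4 and 0.20 for all genes, and 0.25 and 0.17 for Gstp3.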

How the data were processed

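The authors deposited log2 expression values of 22690 probe sets on 24 liver arrays, made with RMA in R 2.15.0 per the submitters' processing notes. They lay between 2.03 and 14.1, 0 were missing, and the median of an array lay between 5.41 and 5.51; they were used as they stood. Per the labels, total RNA was TRIzol-extracted and biotin-labelled. Probe sets were matched to the supplied platform annotation: 64 were controls, 20380 had 1 gene symbol (20351 of these found by ID in the RefSeq table of GRCm38.p6), 691 had several and 1555 were not listed. RMA can compress differences between dim probe sets.

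A gene was represented by its probe set of highest mean over the 24 arrays, and 9167 of 12393 genes entered the tests, those above the 40th percentile on 2 or more arrays. A model of 12 group means was fitted with limma 3.58.1 (R 4.3.3), leaving 12 residual degrees of freedom and holding no replicate block, and 22 comparisons were tested with Benjamini-Hochberg adjustment over all tested genes. The shared probe set and the second Gsta3 probe set were tested in a fit to 14763 probe sets, an alternative chosen after seeing the data. The steps were tested on simulated data in which a gene had the same spread in all groups. A gene with unequal group spreads, such as Gstp3, was not covered by that test. The members, gene lists and tests were chosen with earlier results of these data known.

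All 5 genes were tested in every comparison; the text names the 3 genes most correlated with each and the passing genes of 3 lists (other glutathione transferases, glutathione metabolism, NRF2 targets). Replicate numbers are labels only: over 66 pairs of groups the correlation of same-numbered deviations ran from -0.449 to 0.424 (median 0.0347), over 0.1 in 17. Over 276 pairs of arrays the largest share of equal values was 0.0485%, so none were copies. Alternatives were cyclic loess, other dim filters, means of probe sets, every probe set, a variance trend with robust prior, array weights, the replicate block, only the arrays compared and leaving out arrays. Per-sample columns left unused numbered 0. Promoters came from a RefSeq table and were aligned with Biopython 1.88; Gsta4 had no entry there. Figures were drawn with matplotlib 3.10.9 in Python 3.11.15.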

Additional observations from a re-analysis of the deposited data

Results flagged for a closer look

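The TCPOBOP change differed between CAR.AH and wild-type livers by its own test in 2 readings of the alpha class. For Gsta4 the difference, CAR.AH minus wild-type, was -1.49 on the log2 scale (limma adjusted p = 0.0117), and for the shared Gsta1/Gsta2 probe set it was -4.21 (limma adjusted p = 0.00578).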

How the results depend on the processing

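The 110 member results were recomputed under 10 other settings besides leaving out an array, 1100 values in all, of which 1088 kept direction and side of the threshold, 4 lost the call, 8 gained it and 0 reversed. With a variance trend and robust prior, called members were 1 for phenobarbital in wild-type (Gsta2 lost, adjusted p = 0.074) and 0 for TCPOBOP minus phenobarbital in wild-type (Gstp3 lost, 0.0524). With array weights they were 2 for TCPOBOP in CAR.KO (Gsta2, 0.0123, and Gsta4, 0.0367) and 1 for the CITCO effect between CAR.KO and wild-type (Gstp3, 0.013). With only the arrays compared they were 1 for that effect (Gstp3, 0.000999) and 1 for the CITCO effect between CAR.AH and wild-type (Gstp3, 0.00771). In that setting, which leaves fewer residual degrees of freedom, TCPOBOP in wild-type gained Gsta2 (0.0344) and Gsta3 (0.0397) and lost Gstp3 (0.077), and TCPOBOP minus phenobarbital gained Gsta2 (0.0353) and lost Gstp3 (0.0866). The shared probe set gained the call for TCPOBOP in CAR.KO with array weights (0.0346) and with only the arrays compared (0.0405), and in the latter also for CAR.KO minus wild-type on corn oil (0.0307) and for the TCPOBOP effect between CAR.KO and wild-type (0.0233). The cause of these changes was not tested.

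The replicate block, where replicate numbers pair nothing by the labels, changed no member call, and the Gsta4 difference of TCPOBOP effects between CAR.AH and wild-type stayed at -1.49.

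Leaving out each array gave 1 to 2 called members for TCPOBOP in wild-type, 0 to 2 for phenobarbital in wild-type and for the phenobarbital effect between CAR.AH and wild-type, and 0 to 1 for CITCO in wild-type, phenobarbital in CAR.AH and in CAR.KO, CAR.AH minus wild-type on corn oil, the TCPOBOP effects of CAR.KO and of CAR.AH against wild-type, and TCPOBOP minus phenobarbital. A lone array was assumed to vary like the other groups. In CAR.KO, Gsta2 with phenobarbital gained the call without phenobarbital replicate 1 (1.96, adjusted p = 0.0456). The Gstp3 difference of TCPOBOP effects against wild-type was not called in the main limma fit. It was 2.78 for CAR.KO (adjusted p = 0.138) and 2.93 for CAR.AH (adjusted p = 0.11). As each array was left out it ran from 1.12 to 4.45 for CAR.KO and from 1.26 to 4.59 for CAR.AH. The highest values came without wild-type TCPOBOP replicate 2, where the call was gained. That case rests on the 1 mouse left of a pair with an SD of 2.36. Only Gsta2 and the shared probe set were below the dim limit, on 1 array each. That limit is a percentile of the array and not a measure of background, so a reading above it can still lie near the floor of its probe set. Whether Gstp3, at 6.13 to 7.07 on 19 arrays, lay at such a floor was not tested.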
